A study of Mus musculus with 8 samples.

Results

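The genes described here are Timp1, Timp2, Timp3 and Timp4, the plasminogen activator genes Plat and Plau, the urokinase receptor gene Plaur, and Procr and Thbd of the protein C pathway. They are 9 of the 24033 gene symbols in the table, and all 9 were found in it and tested. They were chosen by symbol from the comparison of injury with naive ganglia, in which Timp1 and Procr were already known to stand among the largest rises. Their values in that comparison, and the calls made on them, are therefore given as a description and without p-values. The data are counts from 3′-end RNA sequencing of mouse dorsal root ganglia, which hold the cell bodies of sensory neurons with their glia, vessels and resident immune cells. The injury group is 4 libraries from lumbar L4-L6 ganglia on the side of a sciatic nerve crush, taken 24 h after it. The naive group is 4 libraries from the uninjured opposite side of mice that also carried the crush, so it is not tissue of unoperated animals. Each repeat pooled ganglia of 2 mice, and the source is labelled as dissociated ganglia, with no word on whether the cells were cultured. Strain, sex and age are not stated.

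Plat encodes tissue plasminogen activator and Plau encodes urokinase, the proteases that cut plasminogen to plasmin, which dissolves fibrin and degrades matrix. Plaur encodes the receptor that holds urokinase at the cell surface. The Timp proteins are secreted inhibitors of metalloproteinases, the other main class of enzymes that break down extracellular matrix, and differ in which enzymes they bind and in how they are regulated. Thbd encodes thrombomodulin, which turns bound thrombin towards the activation of protein C, and Procr encodes the receptor that presents protein C to it. Growth cones of sensory neurons are known to release plasminogen activator, and the plasmin system has been linked to the regeneration of crushed nerves.

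Library totals were 17141116 to 22466009 counts in the injury group and 15446931 to 29412510 in the naive group. Levels are CPM, counts relative to library size after TMM scaling. A count of 3, taken as the limit that a count of 0 allows, stands for 0.133 to 0.182 CPM in injury libraries and 0.101 to 0.188 CPM in naive ones. With 3′-end reads each transcript gives about 1 fragment, so CPM can be set side by side between genes without division by length, though not beyond the accuracy of each gene's annotated end. Naive replicate 1 stood apart on the second principal component of log2 CPM, at 46.6 against -21.1 to 11.3 in the other libraries.

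Start regions are shown for 3 of the genes that were higher after injury, as RefSeq windows of 250 bases before to 50 after the annotated start on GRCm38.p6. Capitals mark matches to TGANTCA, searched on both strands with N as any base. This pattern takes in the site TGACTCA, bound by AP-1 dimers of Jun and Fos family proteins, but is wider than it. Timp1 is at chrX:20869916-20870215 on the + strand, Plaur at chr7:24462233-24462532 on the + strand and Procr at chr2:155750967-155751266 on the + strand.
Timp1: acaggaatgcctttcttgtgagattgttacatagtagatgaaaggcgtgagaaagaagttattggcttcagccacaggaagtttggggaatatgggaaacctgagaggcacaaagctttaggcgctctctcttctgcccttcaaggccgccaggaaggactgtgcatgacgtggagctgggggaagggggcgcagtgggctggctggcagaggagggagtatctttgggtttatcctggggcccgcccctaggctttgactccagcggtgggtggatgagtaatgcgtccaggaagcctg
Plaur: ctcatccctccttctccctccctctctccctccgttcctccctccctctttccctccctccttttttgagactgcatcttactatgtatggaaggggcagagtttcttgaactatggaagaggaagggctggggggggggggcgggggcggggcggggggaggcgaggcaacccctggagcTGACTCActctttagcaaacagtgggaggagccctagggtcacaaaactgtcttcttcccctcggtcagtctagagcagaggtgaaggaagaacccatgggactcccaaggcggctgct
Procr: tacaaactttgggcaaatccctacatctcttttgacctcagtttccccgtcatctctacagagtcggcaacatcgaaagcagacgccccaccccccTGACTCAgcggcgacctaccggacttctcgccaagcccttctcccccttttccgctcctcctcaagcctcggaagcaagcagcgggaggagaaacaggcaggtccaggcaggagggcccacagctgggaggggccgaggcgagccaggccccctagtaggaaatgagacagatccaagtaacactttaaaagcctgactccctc
The match began at position -69 from the start in Plaur and at position -154 in Procr, and read TGACTCA in both. The Timp1 window held no match to these letters. Sites that differ from these letters were not searched, so the absence of a match does not mean that no AP-1 site is there. Windows were found for 6 of the 9 genes, and the other 3 windows, of Timp2, Timp3 and Timp4, held none either. Of 32851 windows of this length, 7.81% held the motif. The GC box GGGCGG, on either strand and in matches that may share a base, was found 3 times in Plaur, 2 times in Timp3 and 1 time each in Timp1 and Timp2. It was not found in Procr or Timp4, and 35.7% of all windows held it. No match to TGACGTCA (the cyclic AMP response element, in 1.79% of all windows), TTCNNNGAA (a STAT motif, in 8.3%) or TATAAA (a core promoter box, in 13.6%) was found in the 6 windows on either strand. A match is a description of the letters and not of a bound site.

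Of the 9 genes, 4 were called higher in injury than in naive ganglia by edgeR over the whole table, Timp1, Procr, Plaur and Plat, and 0 were called lower. Over all 13639 genes tested, 8.12% were called higher and 4.47% lower (1108 and 609 genes, or 888 and 1001 with library totals in place of TMM), and nothing is read from the members' share since this contrast chose them. The other 5, Timp2, Timp3, Timp4, Plau and Thbd, were not called. At an unadjusted threshold of 0.05 edgeR, DESeq2 and limma-voom each passed 5 of the 9, all higher, and 0 lower. At that threshold edgeR passed 13.4% of all genes tested as higher and 11.2% as lower, and nothing is read from the members' count. In the same 4 genes every injury library lay above every naive one, which held for 9.8% of all genes tested, while 7.02% had every injury library below. With adjustment, limma-voom and DESeq2 likewise called 4 higher and 0 lower. Without naive replicate 1, or without replicate 1 in both groups, 5 were called higher, the addition being Thbd. Naive replicate 1 held the highest naive value of Thbd, so leaving it out favours this call in advance. In whole ganglia, a change in the number of cells that make a transcript and a change in its amount per cell cannot be told apart.

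**Figure D1:**
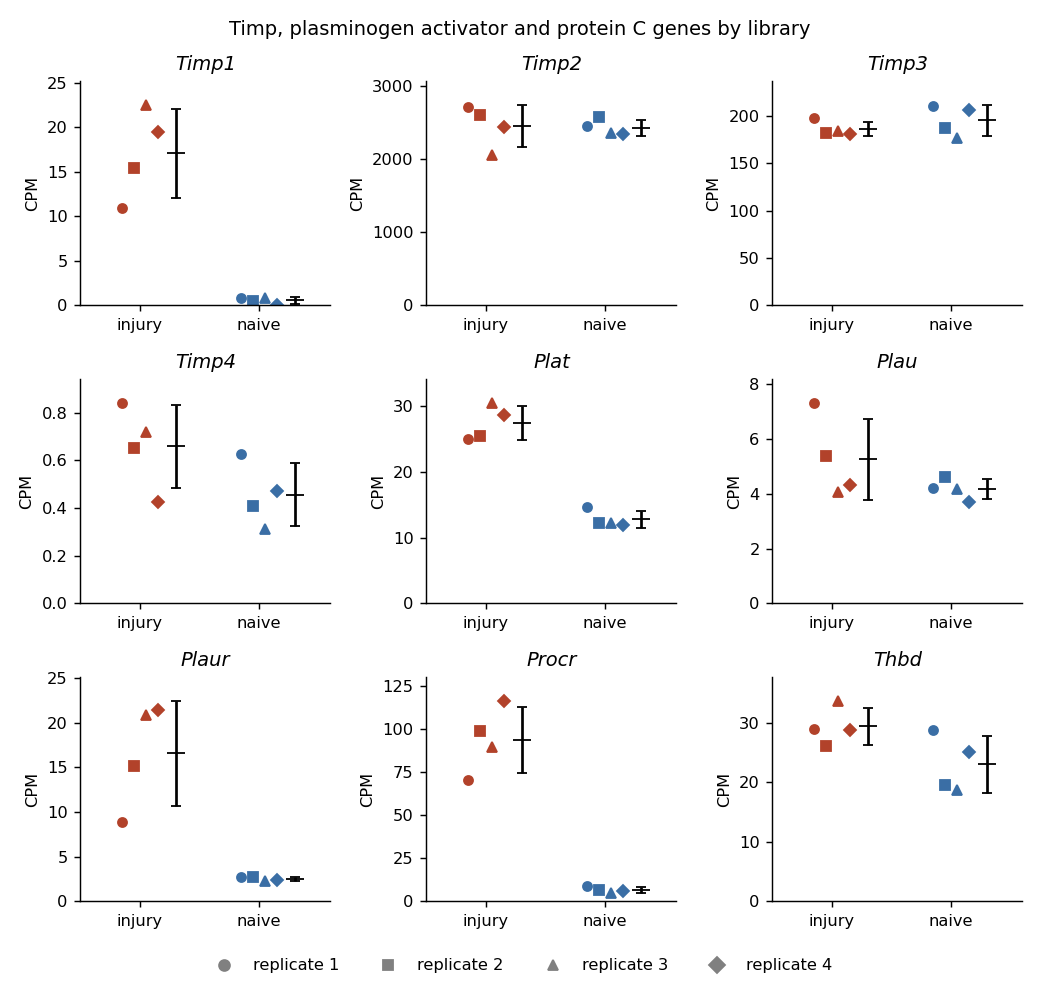
Level of each gene in CPM (linear axis from 0) in 4 injury and 4 naive libraries; marker shapes give the replicate number, and the bar beside the points is the mean ± SD. Timp1, Plat, Plaur and Procr show no overlap between groups, with injury replicate 1 the lowest injury library in each, while Timp2, Timp3, Timp4, Plau and Thbd overlap.

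The tissue inhibitors differed from each other. Timp1, the inducible member of the family (chromosome X, 20870166 to 20874735, + strand), had 10.9, 15.4, 22.5 and 19.4 CPM in injury replicates 1 to 4. In naive replicates 1 to 4 it had 0.878, 0.501, 0.804 and 0.0673 CPM, which are 14, 11, 18 and 2 counts. Naive levels thus rest on few reads, and the lowest of them lies under the limit that a count of 0 allows. The lowest injury library was still 12.4 times the highest naive one. Timp1 averaged 17.1 ± 5.03 CPM in injury and 0.562 ± 0.368 CPM in naive ganglia (SD, n = 4 each), a 30.3-fold ratio of means and a log2 fold change of 5.02 ± 0.43 (SE). By log2 fold change it ranked 12 of 13639 genes, while by mean level it ranked 8831. The low-count filter asks for 0.460 CPM in at least 4 libraries; Timp1 reached this in 4 injury and 3 naive libraries and so passed through the injury group, and Timp4 in 3 injury and 2 naive libraries.

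Timp2, which inhibits metalloproteinases and also takes part in the activation of Mmp2 by Mmp14 (chromosome 11, 118301069 to 118355740, - strand), was by far the most abundant of the 9. It had 2710.45, 2602, 2056 and 2437 CPM in injury replicates 1 to 4, against 2449, 2577, 2360.34 and 2338 CPM in naive replicates 1 to 4. The groups overlapped, and the means were 2451 ± 287 CPM in injury and 2431 ± 109 CPM in naive ganglia (log2 fold change 0.01 ± 0.07). By mean level it ranked 24 of 13639 genes. Injury replicate 3 was the lowest of all 8 libraries.

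Timp3 is bound to matrix and inhibits ADAM17 besides matrix metalloproteinases (chromosome 10, 86300372 to 86349506, + strand). Its level was 197, 182, 183 and 181 CPM in injury replicates 1 to 4, against 211, 186, 176 and 206 CPM in naive replicates 1 to 4. Injury values lay within the naive range, with means of 186 ± 7.70 CPM in injury and 195 ± 16.2 CPM in naive ganglia and a log2 fold change of -0.07 ± 0.07. Timp4 (chromosome 6, 115241892 to 115252205, - strand), a member of narrower tissue range, had 19, 14, 14 and 7 counts in injury libraries and 10, 9, 7 and 14 in naive ones. Its means were 0.659 ± 0.175 CPM in injury and 0.455 ± 0.132 CPM in naive ganglia, and its log2 fold change of 0.55 ± 0.70 was smaller than its error. The coefficient of variation of Timp4 was 26.6% among injury libraries, where counting error alone gives 27.2%. A change of this size was not detectable at this depth.

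Summed over the 4 Timp genes the level was 2655 ± 286 CPM in injury and 2627 ± 108 CPM in naive ganglia, and the groups overlapped. Timp2 made up 92.3 ± 0.961% of these counts in injury and 92.5 ± 0.677% in naive libraries. Timp1 made up 0.373% (95% exact interval 0.328 to 0.422), 0.550% (0.493 to 0.613), 0.994% (0.903 to 1.09) and 0.737% (0.659 to 0.822) in injury replicates 1 to 4. In naive replicates 1 to 4 it made up 0.0330% (0.0180 to 0.0554), 0.0181% (0.00904 to 0.0324), 0.0317% (0.0188 to 0.05003) and 0.00264% (0.000320 to 0.00955). These shares do not depend on library scaling. Timp1 was chosen with its rise known, so the intervals describe single libraries and are no test between the groups. The large relative change of Timp1 was thus under 1% of the summed Timp counts in every injury library. The intervals and the limit for a count of 0 hold counting error alone, with every read taken as independent. The reads carry no molecular identifiers, so repeated reads of the same molecule could not be set apart.

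Of the 4 Timp genes 3 lie inside a synapsin gene on the opposite strand in GENCODE M21: Timp1 inside Syn1, Timp3 inside Syn3 and Timp4 inside Syn2. Timp4 also lies inside the gene model Gm17482 on the opposite strand, with no shared exonic base and no values here. Synapsins are neuronal proteins that tether synaptic vesicles. Whether the counting used strand is not stated, so reads of such pairs could be confused and the values of these Timp genes are uncertain to that extent. The last 500 bases of Timp3 lay wholly within annotated exons of Syn3, and 1733 exonic bases were shared; Timp1 shared no exonic base with Syn1 and Timp4 shared 90 with Syn2. Syn1 had 214 ± 13.7 CPM in injury and 216 ± 12.8 CPM in naive ganglia (log2 fold change -0.02 ± 0.06, edgeR adjusted p = 0.916), below 0 here but above 0 without injury replicate 2 or naive replicate 4. Syn2 had 249.8 ± 22.4 CPM in injury and 269 ± 4.69 CPM in naive ganglia (edgeR adjusted p = 0.321). Syn3 had 7.22 ± 2.36 CPM in injury and 6.21 ± 0.492 CPM in naive ganglia (edgeR adjusted p = 0.645), with 10.3 CPM in injury replicate 1 and a fold change that turned below 0 without that library. Timp2 holds Cep295nl inside it on its own strand, with no shared exonic base.

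Of the plasminogen activators, Plat was higher after injury and Plau was not called. Plat (chromosome 8, 22757727 to 22782844, + strand) had 24.96, 25.5, 30.4 and 28.6 CPM in injury replicates 1 to 4, against 14.6, 12.2, 12.3 and 11.9 CPM in naive replicates 1 to 4. Every injury library lay above every naive one, the lowest by 1.71 times the highest. Means were 27.4 ± 2.59 CPM in injury and 12.7 ± 1.27 CPM in naive ganglia, a 2.15-fold ratio and a log2 fold change of 1.11 ± 0.13. The spread was small, with coefficients of variation of 9.45% in injury and 9.97% in naive libraries.

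Plau (chromosome 14, 20836660 to 20843385, + strand) had 7.30, 5.35, 4.06 and 4.30 CPM in injury replicates 1 to 4, against 4.20, 4.60, 4.15 and 3.70 CPM in naive replicates 1 to 4. Only injury replicates 1 and 2 exceeded the naive range. Its log2 fold change was 0.34 ± 0.26 with all libraries and 0.15 without replicate 1 in both groups. The ratio of Plat to Plau counts within a library was 5.58 ± 1.84 in injury and 3.07 ± 0.356 in naive ganglia; injury replicate 1, at 3.42, lay within the naive range of 2.64 to 3.48. The summed macrophage markers were 30.5, 27.8, 21.0 and 18.7 CPM in injury replicates 1 to 4, against 21.5, 30.3, 16.8 and 20.5 CPM in naive replicates 1 to 4. Within the injury group this sum and Plau were both highest in replicates 1 and 2. Within the naive group both were highest in replicate 2. At sums of 30.5 CPM in injury replicate 1 and 30.3 CPM in naive replicate 2, Plau stood at 7.30 and 4.60 CPM. The other marker sums were not set beside Plau, and the part of macrophages in its level was not tested.

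Plaur (chromosome 7, 24462484 to 24475968, + strand) had 8.90, 15.1, 20.8 and 21.4 CPM in injury replicates 1 to 4 and 2.70, 2.69, 2.23 and 2.39 CPM in naive replicates 1 to 4. The lowest injury library was 3.30 times the highest naive one. The naive libraries lay close together and the injury libraries did not: the coefficient of variation was 35.3% in injury and 9.17% in naive ganglia, where counting alone gives 5.58% in injury and 13.4% in naive ganglia. Means were 16.6 ± 5.86 CPM in injury and 2.50 ± 0.229 CPM in naive ganglia, a 6.63-fold ratio and a log2 fold change of 2.73 ± 0.25, rank 46 of all genes tested. The receptor's counts stood at 3.54 ± 1.88 times those of its ligand gene Plau in injury libraries and at 0.602 ± 0.0514 times in naive ones. This ratio was over 1 in all injury libraries and under 1 in all naive ones.

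Of the protein C pair, the receptor gene Procr was higher after injury and the thrombomodulin gene Thbd was not called. Procr (chromosome 2, 155751117 to 155755471, + strand) had 70.1, 98.9, 89.7 and 116 CPM in injury replicates 1 to 4, against 8.66, 6.83, 5.04 and 6.02 CPM in naive replicates 1 to 4. The lowest injury library was 8.10 times the highest naive one. Procr averaged 93.7 ± 19.2 CPM in injury and 6.64 ± 1.53 CPM in naive ganglia, a 14.1-fold ratio and a log2 fold change of 3.84 ± 0.17, rank 22 of all genes tested. Counts behind it were 7374 over the injury libraries and 580 over the naive ones, and counting error alone would give coefficients of variation of 2.33% in injury and 8.30% in naive libraries, where 20.5% and 23.1% were measured in injury and naive libraries.

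Thbd (chromosome 2, 148404466 to 148408188, - strand) had 29.03, 26.1, 33.7 and 28.8 CPM in injury replicates 1 to 4, against 28.9, 19.6, 18.7 and 25.1 CPM in naive replicates 1 to 4. Naive replicate 1 alone reached the injury range, so the groups overlapped. The log2 fold change was 0.35 ± 0.14 with all libraries and was not called. Without naive replicate 1 it was 0.48 and called. That library held the highest naive value, so leaving it out raises the fold change in advance, and nothing is read from this call. Procr counts were 3.22 ± 0.804 times those of Thbd in injury and 0.290 ± 0.0466 times in naive libraries, with the order of the pair reversed between groups in all 8.

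**Figure D2:**
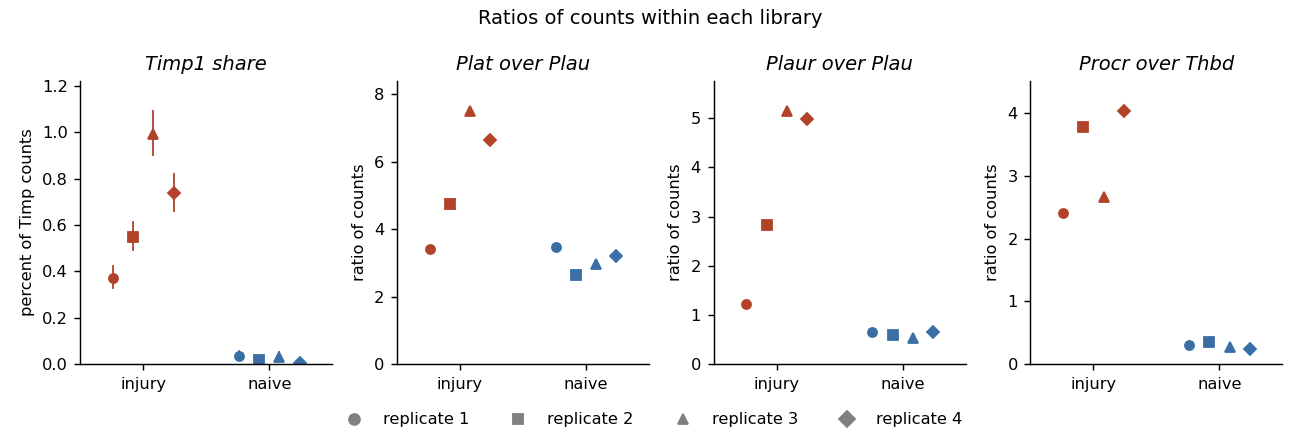
Ratios formed within each library, each axis linear from 0, for 4 injury and 4 naive libraries; lines on the Timp1 share are 95% exact intervals. Timp1 share of Timp counts, Plaur over Plau and Procr over Thbd show no overlap between groups, while injury replicate 1 lies within the naive range in Plat over Plau.

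The order of the levels differed between groups. In injury ganglia it ran Timp2, Timp3, Procr, Thbd, Plat, Timp1, Plaur, Plau and Timp4, and in naive ganglia it ran Timp2, Timp3, Thbd, Plat, Procr, Plau, Plaur, Timp1 and Timp4. Neighbours in the injury order whose library ranges overlapped were Thbd with Plat and Timp1 with Plaur. In the naive order the ranges of Timp1 and Timp4 overlapped, and those of the other neighbours did not.

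The 4 genes called higher had the same lowest injury library and the same highest naive library. Injury replicate 1 was the lowest injury library in 4 of these 4 genes, and naive replicate 1 was the highest naive library in 4 of the 4, and in 7 of all 9. In these 4 genes the 2 libraries of number 1 were thus the closest to each other across the groups. The share of all genes tested with this order was not counted, so nothing is read from the members' count. On the first principal component, injury replicate 1 lay at -19.0, against -34.0 to -27.6 in the other injury libraries. Naive replicate 1 lay at 39.4 there, farther from the injury group than the other naive libraries, at 23.7 to 25.2. Without the 2 libraries of number 1 the log2 fold changes were 5.46 for Timp1, 1.22 for Plat, 2.97 for Plaur and 4.09 for Procr. Each was larger than with all libraries, which leaving out the lowest injury and the highest naive value fixes in advance. Over all 16 alternatives the ranges were 4.55 to 5.46 for Timp1, 1.04 to 1.22 for Plat, 2.58 to 2.97 for Plaur and 3.71 to 4.09 for Procr. The lowest value of Timp1 was that without naive replicate 4, the library with 2 counts.

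**Figure D3:**
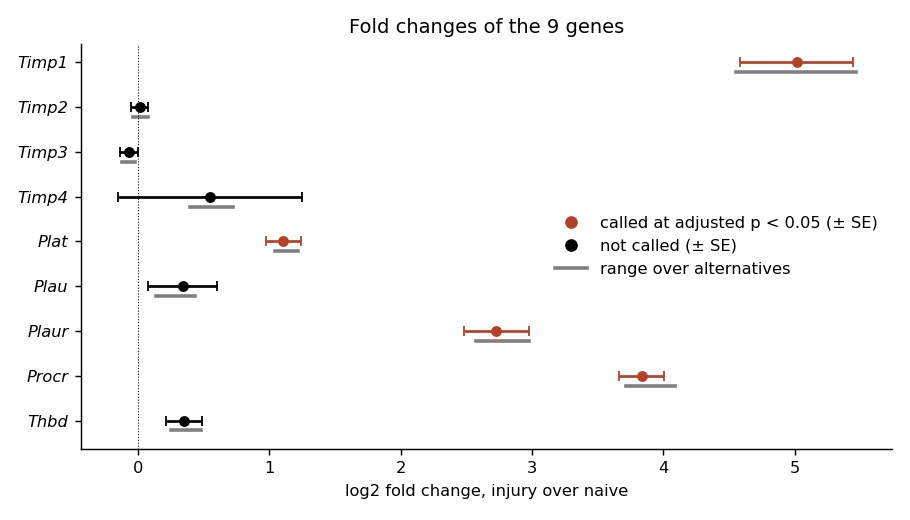
Log2 fold change of injury over naive for each gene, with its standard error, and below it in grey the range over the alternative settings. Timp1, Procr, Plaur and Plat stand apart from 0 under every alternative, while Timp2 ranges from -0.04 to 0.08 and Timp3 from -0.12 to -0.03.

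Genes whose level followed the same course over the 8 libraries were sought among 9801 others with a mean of at least 5 CPM. The measure was Pearson's r of log2 CPM over 8 libraries in 2 groups, so a high r mostly says that a gene also differs between the groups. Closest to Procr were Sox9, a transcription factor of glia and progenitors (r = 0.998), Flrt3, a leucine-rich repeat membrane protein (0.997), and Sprr1a, a small proline-rich protein of regenerating neurons (0.996). Sox9 had 41.8 ± 9.84 CPM in injury and 4.51 ± 1.27 CPM in naive ganglia, and Flrt3 had 389 ± 70.2 CPM in injury and 41.7 ± 5.88 CPM in naive ganglia. No test is given for these genes, since the choice by r fixes that they differ. Closest to Timp1 were Pmaip1, a BH3-only death gene (0.990), Jun (0.987) and Iars, an isoleucyl-tRNA synthetase (0.983). Closest to Plaur were the corepressor Tle3 (0.997), Cnst (0.994) and Phlda1 (0.994), and closest to Plat were the ubiquitin ligase Rnf122 (0.994), Ifrd1 (0.993) and the carboxypeptidase Cpd (0.991).

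The rest of the pathway was followed through 5 lists with 112 genes, of which 73 were tested. Of these 73, 11 were called higher and 2 lower, 15.1% and 2.74%, against 8.12% and 4.47% of all genes tested. The lists were chosen with earlier results of these data known, so nothing is read from this difference in shares. The adjusted p-values of listed genes below carry the same limit. Their median log2 fold change was 0.07, against -0.004 for all genes. Most listed genes of proteolysis and coagulation, 60 of the 73, were not called.

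In the plasminogen list, 3 of 11 tested genes rose and 1 fell, with a median log2 fold change of 0.21; without injury replicate 2 or 4 only 1 rose, as with library totals, and the fall was lost in 7 of 16 alternatives. S100a10 and Anxa2, the subunits of a cell surface complex that binds plasminogen and Plat, both rose. S100a10 reached 885 ± 60.4 CPM in injury, against 697 ± 13.4 CPM in naive ganglia (edgeR adjusted p = 6.03e-05). Anxa2 reached 1945 ± 95.8 CPM in injury, against 1685 ± 146 CPM in naive ganglia (edgeR adjusted p = 0.0159), and missed the threshold without injury replicate 2 (edgeR adjusted p = 0.0668) or 4 (0.0655) and with library totals (0.0621). Serpinb6a, an intracellular serpin, rose by a log2 fold change of 0.15 ± 0.05 (edgeR adjusted p = 0.0422) and was not called in 10 of 16 alternatives (0.0541 to 0.210). The plasminogen receptor gene Plgrkt fell to 6.51 ± 1.13 CPM in injury, against 10.4 ± 2.34 CPM in naive ganglia (edgeR adjusted p = 0.0364), but was not called in 7 of 16 alternatives (0.0543 to 0.182).

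Inhibitors of the activators made by neurons and glia showed values close to each other in both groups. Serpini1, neuroserpin, had 125 ± 2.74 CPM in injury and 126 ± 2.99 CPM in naive ganglia, and Serpine2, protease nexin-1, had 94.7 ± 4.41 CPM in injury and 99.9 ± 11.2 CPM in naive ganglia (edgeR adjusted p = 0.909 and 0.620). Plat counts were 0.220 ± 0.0196 of Serpini1 counts in injury and 0.101 ± 0.0111 in naive libraries. Serpinb2, PAI-2, had 0, 11, 18 and 6 counts in injury replicates 1 to 4 and 0 counts in all naive libraries; it was too low to be tested. Plg, plasminogen itself, which plasma carries from the liver, had 2 counts over the injury libraries and 7 over the naive ones. The clearance receptor gene Lrp1 had 22.7 ± 2.07 CPM in injury and 18.3 ± 1.43 CPM in naive ganglia (edgeR adjusted p = 0.119).

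Among 15 tested genes of thrombin, protein C and coagulation, 1 rose and 0 fell in edgeR, with a median log2 fold change of 0.03. At an unadjusted threshold of 0.05 edgeR passed 3 higher and 1 lower, against 13.4% and 11.2% of all genes tested. The other tools, DESeq2 and limma-voom, also called 1 and 0. The number that rose was 3 without injury replicate 3 and 0 without the libraries at which Pros1 was lost. Pros1, protein S, the cofactor of activated protein C, rose to 4.21 ± 1.28 CPM in injury, against 1.68 ± 0.666 CPM in naive ganglia (edgeR adjusted p = 0.0198). Leaving out injury replicate 2 (edgeR adjusted p = 0.0875), injury replicate 4 (0.0763) or naive replicate 2 (0.0645) ended the call. Proc, protein C itself, had 22 counts in injury and 33 in naive libraries in all and was not tested. The thrombin receptor genes F2r and F2rl2 had 35.6 ± 4.81 and 53.5 ± 3.74 CPM in injury ganglia, against 38.7 ± 6.34 and 57.7 ± 6.89 CPM in naive ganglia (edgeR adjusted p = 0.610 and 0.551). Of the genes for the protein S and Gas6 receptors, Axl had 12.6 ± 1.99 CPM in injury and 9.53 ± 0.328 CPM in naive ganglia (edgeR adjusted p = 0.126). Mertk, the third of these receptors, had 0, 0, 0 and 7 counts in injury replicates 1 to 4 and 3, 12, 11 and 15 counts in naive replicates 1 to 4, and was too low to be tested. Tyro3 had 57.6 ± 4.401 CPM in injury and 63.0 ± 6.28 CPM in naive ganglia (edgeR adjusted p = 0.437).

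Of 12 matrix metalloproteinases tested, the enzymes that the Timp proteins bind, 1 rose and 0 fell in edgeR, and the median log2 fold change was -0.11. The 1 was Mmp16, a membrane-anchored enzyme, with 17.5, 36.5, 23.4 and 31.4 CPM in injury replicates 1 to 4 and 5.27, 10.8, 8.57 and 6.12 CPM in naive ones (log2 fold change 1.81 ± 0.25, edgeR adjusted p = 0.000175). Without adjustment 2 higher and 1 lower passed 0.05 in edgeR, against 13.4% and 11.2% of all genes tested. DESeq2 and limma-voom made as many calls as edgeR. Without naive replicate 1 there was 1 call lower, that of Mmp15. Mmp14, the membrane enzyme that works with Timp2, had 18.9 ± 3.93 CPM in injury and 14.01 ± 1.57 CPM in naive ganglia. Its edgeR adjusted p was 0.0774, and 0.0457 with the replicate block (0.0457 to 0.358 over all alternatives), under which 2 enzymes of the list were called higher. The gelatinase genes Mmp2 and Mmp9 were low, at 1.41 ± 0.535 and 3.37 ± 1.03 CPM in injury ganglia, against 1.61 ± 0.855 and 4.63 ± 2.87 CPM in naive ganglia.

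Of 19 tested ADAM and ADAMTS proteases, 2 rose and 1 fell, with a median log2 fold change of 0.06. DESeq2 and the replicate block each called 3 higher, and without injury replicate 2 edgeR called 2 lower. Adam8, a sheddase best known from immune cells, rose to 30.8 ± 4.82 CPM in injury, against 6.98 ± 1.37 CPM in naive ganglia (log2 fold change 2.14 ± 0.16, edgeR adjusted p = 9.26e-10). Adamts1, which cuts aggrecan and versican, rose to 84.7 ± 2.52 CPM in injury, against 53.9 ± 11.2 CPM in naive ganglia (edgeR adjusted p = 0.000137). Adamts15 fell to 18.0 ± 1.05 CPM in injury, against 24.9 ± 2.01 CPM in naive ganglia (edgeR adjusted p = 0.0105). Adam17 and Adam10, the main sheddases, had 18.6 ± 3.07 and 43.3 ± 3.72 CPM in injury ganglia, against 17.8 ± 3.39 and 45.02 ± 6.74 CPM in naive ganglia (edgeR adjusted p = 0.873 and 0.830). The sign of Adam17 flipped without injury replicate 4 or naive replicate 1, and that of Adam10 without naive replicate 1 or without replicate 1 in both groups.

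In the list of other inhibitors and Timp partners, 4 of 16 tested genes rose and 0 fell in edgeR, with a median of 0.11. Without adjustment 6 higher and 1 lower passed 0.05 in edgeR, against 13.4% and 11.2% of all genes tested. The other tools, DESeq2 and limma-voom, called 4 and 0. Cd63, a tetraspanin known as a cell surface partner of Timp1, rose to 481, 585, 549.6 and 633 CPM in injury replicates 1 to 4, against 275, 253, 264.04 and 294 CPM in naive replicates 1 to 4 (log2 fold change 1.05 ± 0.07, edgeR adjusted p = 3.54e-10). Serpinb1a, an intracellular inhibitor of neutrophil proteases, rose to 314 ± 56.5 CPM in injury, against 83.6 ± 5.82 CPM in naive ganglia (edgeR adjusted p = 7.73e-08). Serpina3n, a secreted inhibitor of serine proteases, rose to 109 ± 13.5 CPM in injury, against 73.8 ± 2.81 CPM in naive ganglia (edgeR adjusted p = 3.56e-05). Serping1, the complement C1 inhibitor, rose to 108 ± 9.84 CPM in injury, against 88.2 ± 2.37 CPM in naive ganglia (edgeR adjusted p = 0.00973), but not without injury replicate 2 (0.0602) or naive replicate 3 (0.0516).

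**Figure D4:**
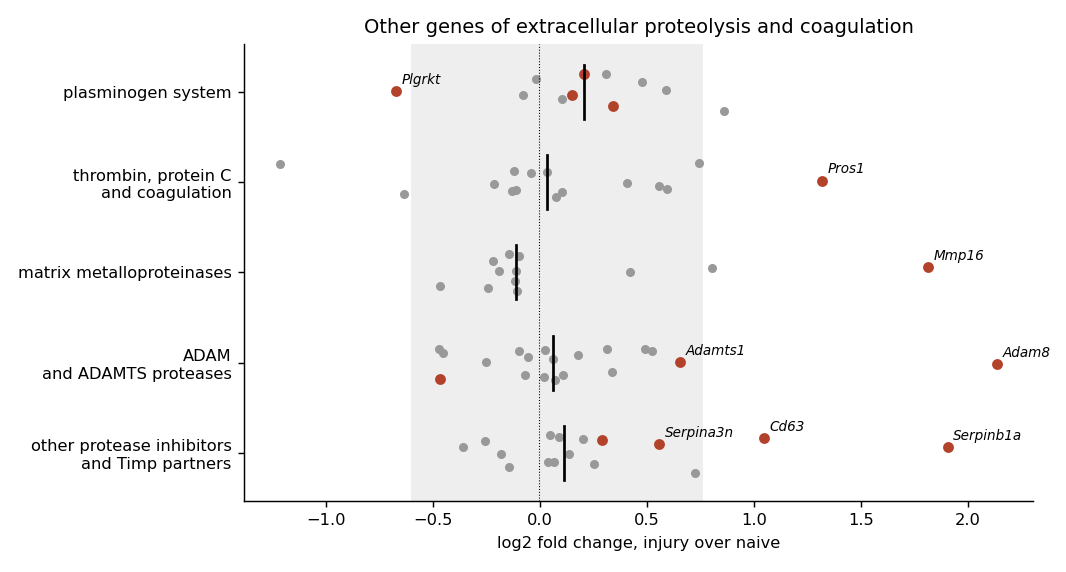
Log2 fold change of injury over naive for the 73 tested genes of the 5 lists; red points were called at an adjusted p under 0.05, grey points were not, and black bars are list medians. The grey band spans the 5th to 95th percentile of all genes tested, -0.60 to 0.76, which Adam8, Serpinb1a, Mmp16, Pros1 and Cd63 exceed among the called genes and Plgrkt undercuts.

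Several of the 9 genes are also made by cells other than neurons, among them endothelial cells for Procr and Thbd and myeloid cells for Plaur and Plau. No measured marker was at 0 in all libraries; the macrophage marker Adgre1 and the neutrophil marker Ly6g were not analysed here. Of 14 endothelial and mural markers edgeR called 0, with 2 passing 0.05 unadjusted, both higher, Esam (log2 fold change 0.38) and Egfl7 (0.17); DESeq2 called 0, limma-voom 1 and the replicate block 2 higher. Their summed level was 374, 275, 316 and 268 CPM in injury replicates 1 to 4, against 314, 251, 254 and 245 CPM in naive replicates 1 to 4, so that the ranges overlapped while the injury library was higher in 4 of 4 pairs of equal number. EdgeR called 0 of 13 macrophage markers, with 3 passing 0.05 unadjusted, all higher, Cx3cr1 (2.20-fold), Cd14 (1.84-fold) and Mrc1 (1.68-fold). Other markers of this list lay below 0, down to a log2 fold change of -0.75, and the list median was -0.12. Of 8 neutrophil markers edgeR called 0, with 0 passing 0.05 unadjusted and a median log2 fold change of -0.24. DESeq2 and limma-voom called 0 of either list. Of all genes tested, 13.4% passed 0.05 unadjusted as higher and 11.2% as lower. Macrophage markers summed to 18.7 to 30.5 CPM in injury and 16.8 to 30.3 CPM in naive libraries, and neutrophil markers to 157 to 307 CPM in injury and 165 to 541 CPM in naive libraries. Fibroblast markers summed to 246 to 373 CPM in injury and 203 to 430.3 CPM in naive libraries. EdgeR called 1 of 9 higher and 0 lower, against 8.12% and 4.47% of all genes tested.

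Of 9 satellite glial markers 1 was called higher and 1 lower (2 and 2 with the replicate block), and the sums were 1496 to 1732 CPM in injury and 1361 to 1736 CPM in naive libraries. Myelinating Schwann cell markers summed to 720.3 to 925 CPM in injury and 745 to 1105 CPM in naive libraries. EdgeR, DESeq2 and limma-voom called 0 of these 8, and 1 passed 0.05 unadjusted, as lower. Sensory neuron markers, present at high levels throughout, summed to 20036 to 22914 CPM in injury and 18926 to 21168 CPM in naive libraries. Of these 12, 2 were called lower and 0 higher (2 and 1 with the replicate block). Of all genes tested the main edgeR fit called 8.12% higher and 4.47% lower, and nothing is read from these marker counts. All 7 sums overlapped between the groups; among pairs of equal number the injury library was higher in 1 to 3 of 4 for the 6 lists other than the endothelial and mural one. The part of these cells in the levels of the 9 genes was not tested.

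**Figure D5:**
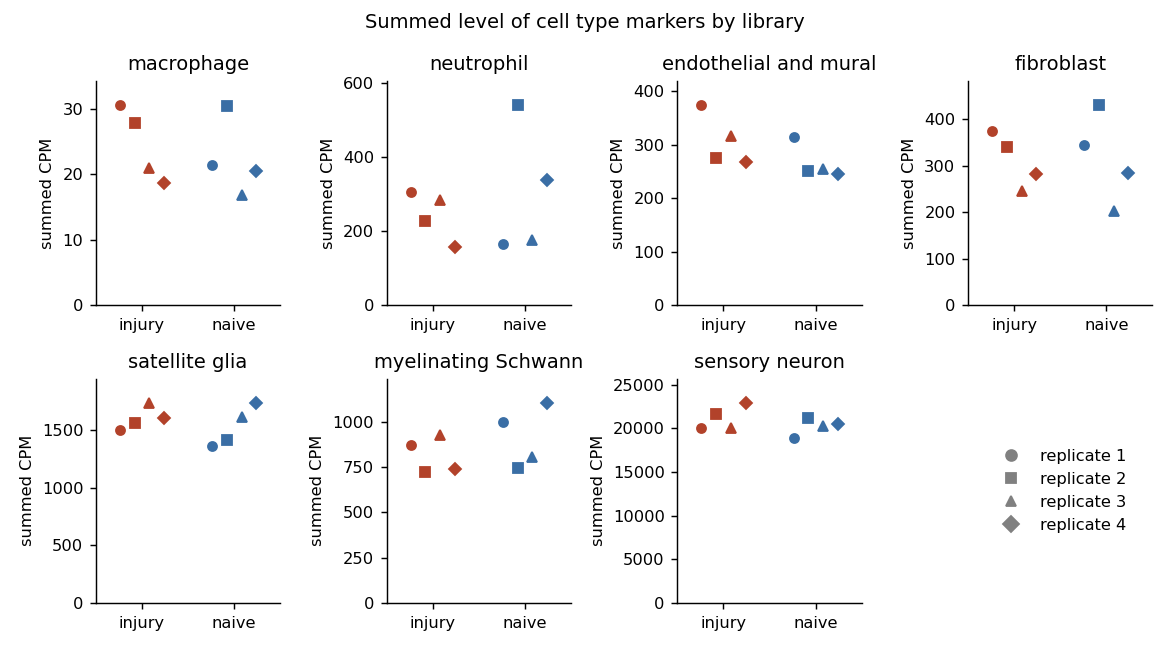
Summed CPM of each marker list in 4 injury and 4 naive libraries, each axis linear from 0; marker shapes give the replicate number. All 7 lists overlap between the groups, endothelial and mural markers are higher in the injury library of every pair of equal number, and macrophage markers run between 16.8 and 30.5 CPM over all libraries.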

How the data were processed

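The authors deposited 1 table of raw counts by gene symbol, with a column for each library, made from QuantSeq 3′ mRNA (REV) libraries. The tools named in the submitters' processing notes are bcl2fastq 2.17, STAR and HTSeq, and the build is named there as GRCm38 and as mm10. The gene annotation and the use of strand in counting are not stated there. Of 24060 rows, 27 whose symbol had become a date (0.146% to 0.158% of counts) were left out.

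The tests used edgeR 4.0.16 in R 4.3.3: filterByExpr, TMM scaling and a quasi-likelihood F-test with robust dispersions, of injury against naive, with Benjamini-Hochberg adjustment over 13639 genes and a threshold of 0.05. The biological coefficient of variation was 17.1%. Standard errors were derived as the absolute log2 fold change over the square root of F, and are approximate. CPM are TMM-scaled, and log2 CPM carries a prior count of 2. Of the plasminogen list, 1 gene is not reported here and was left out of the counts and median of its list. The members and lists were chosen with earlier results of these data known. Positions are from GENCODE M21 on GRCm38, and start windows from RefSeq on GRCm38.p6, with those of chromosome 18 not used.

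Named genes are the 9 members, genes overlapping them, called list genes averaging 1 CPM or more (at most 6 a list, by p), and the 3 genes most correlated with each member that has a mean of at least 1 CPM and changes at least 2-fold. Serpini1, Serpine2, Serpinb2, Plg, Proc, Lrp1, F2r, F2rl2, F2rl3, Axl, Tyro3, Mertk, Gas6, Mmp2, Mmp9, Mmp14, Mmp15, Mmp24, Adam10, Adam17, Spock3 and the marker genes given with a fold change fall outside the rule and were named after their values were seen. Some listed genes held 0 counts throughout, among them Eno1, an enzyme of every cell, so a 0 can come from the counting.

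The study's design text says that injured and opposite ganglia came from 2 mice per repeat, so equal replicate numbers were read as the same mice. Same-numbered libraries correlated weakly in their deviations from group means (r = 0.035 to 0.057, other numbers -0.084 to 0.038). For 7 of the 8 libraries the highest r across the groups was with the library of the same number. The main edgeR fit compared the groups without this pairing, so the p-values leave it out except where the replicate block is named. The block, an alternative only, called more genes across the table than the main fit, both higher and lower. Within groups, each pair of libraries differed by more than sampling noise (chi-square over its degrees of freedom 8.09 to 19.2). That libraries came from separate mice is not stated beyond this, so p-values measure the spread between these libraries. The alternatives tried were scaling by library totals or by DESeq2 size factors, testing every gene or those averaging 5 CPM or more, the tools DESeq2 1.42.0 and limma-voom (limma 3.58.1), a replicate block, leaving out each library, and leaving out replicate 1 in both groups.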

Additional observations from a re-analysis of the deposited data

Results flagged for a closer look

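Values were examined in 124 groups of 4 libraries, and in 10 of them, 8.06%, 1 library stood so far from the other 3 that its gap exceeded Dixon's critical value at the 95% level; chance flags about 1 group in 20. Among the members, Plat stood out in naive replicate 1, at 14.6 CPM against 11.9 to 12.3 CPM in the other naive libraries, and so did its count ratio to Serpini1 (0.117 against 0.0933 to 0.0970). In the same library Rnf122 was high (20.8 CPM against 15.5 to 15.9) and Serpinb1a was low (74.9 CPM against 85.7 to 86.9). Rnf122 was chosen for its correlation with Plat over these same libraries, and the ratio reuses the Plat value. The flags of Plat, its ratio and Rnf122 are thus not independent, and nothing is read from 8.06% against 1 in 20. Naive replicate 1 also stood apart on the second principal component.

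Other single libraries that stood out were injury replicate 1 for Ifrd1 (188 CPM against 226 to 230.3), injury replicate 2 for Serpinb6a (569.8 CPM against 556 to 558) and Mmp24 (24.8 CPM against 20.5 to 20.9), and injury replicate 3 for Mmp2 (2.21 CPM against 1.06 to 1.21). Naive replicate 2 stood out for F2rl2 (47.5 CPM against 59.5 to 61.96) and naive replicate 4 for Tyro3 (53.6 CPM against 65.6 to 66.6).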

How the results depend on the processing

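All 142 alternative log2 fold changes of the 9 members moved by less than the spread between libraries, and their number of calls was 4 to 5 higher and 0 lower. Of 716 alternative results for 45 other named genes, 673 kept their direction and their side of the threshold. Across the table the calls ranged from 847 to 1245 higher and 452 to 1001 lower; library totals gave 1001 lower in place of 609 and moved the median of all genes from -0.004 to -0.06. Among the 45 other named genes, the replicate block, which pairs the libraries, changed no call but that of Mmp14. It gave 2 metalloproteinases called higher in place of 1. The marker genes were not among these 45, and the block called 2 endothelial and mural markers higher in place of 0. Plasminogen genes called higher numbered 1 with library totals and 1 to 3 when single libraries were left out; the number called lower was 0 with limma-voom, 0 without replicate 1 in both groups and 0 to 1 on leaving out single libraries. Coagulation genes called higher numbered 0 with a mean of at least 5 CPM, which leaves out Pros1, and 0 to 3 on leaving out single libraries; 1 was called lower without replicate 1 in both groups, and 0 to 1 on leaving out single libraries. Metalloproteinases called lower numbered 1 with library totals, 1 without replicate 1 in both groups and 0 to 1 on leaving out single libraries, the gene being Mmp15; ADAM and ADAMTS genes called lower numbered 1 to 2. Among other inhibitors 1 was called lower with library totals, Spock3. Signs turned in genes with small differences: Gas6 with library totals (-0.021) and on leaving out single libraries (-0.0012 to 0.053); Syn3 (-0.054) and Adam10 (0.074) without replicate 1 in both groups; and, on leaving out single libraries, Syn1 (-0.073 to 0.018), Syn3 (-0.011 to 0.35), Mmp2 (-0.53 to 0.038), Adam10 (-0.15 to 0.026) and Adam17 (-0.024 to 0.16). The cause was not tested. Timp4, Plau and some low genes gave no value with a mean of at least 5 CPM. Depth limits Timp1 in naive libraries and Timp4 in both groups.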
